A study of Mus musculus with 2 samples.

Results

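The imprinted RNA gene H19, its neighbour Igf2 and the genes of the growth hormone and insulin-like growth factor axis were followed across the cells of newborn mouse back skin. The 10 genes are H19, the ligands Igf2 and Igf1, the receptors Igf1r, Igf2r and Ghr, and the binding proteins Igfbp2, Igfbp3, Igfbp4 and Igfbp5. They were found by their symbols in the deposited gene list, where each of the 10 has 1 entry among 56694 genes. They were picked for their place in the axis, with earlier results of these data known.

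The study asked how the Hedgehog effector Gli2 shapes hair follicle formation, and single cells of epidermal whole mounts from postnatal day 2 back skin were compared between 2 libraries. The control library is labelled WT, although its mice are littermates that carry floxed Gli2 but no Cre, and the other, Gli2_EKO, comes from K14Cre transgenic mice with both Gli2 alleles floxed, on a C57Bl/6N background. Cre is driven there by the keratin 14 promoter from about embryonic day 10, a promoter of keratinocytes, and dermal cells also came along in the preparation. The number of mice behind each library is not given in the sources used here, and each group has 1 library, so no difference has a replicate check, no test was made, and every ratio compares 2 libraries. The deposited count of Gli2 could not check the genotype, since the assay reads the polyA end of a transcript and the deleted exons are not given in the sources used here. The control library held 6326 barcodes and 71021773 unique molecular identifiers (UMIs), and the Gli2_EKO library 4296 barcodes and 48866478 UMIs. The libraries shared 0 cell barcodes. Both were alike in sex genes: a Y-linked transcript was found, without Xist, in 90.3% of control and 89.4% of Gli2_EKO cells, and no cell of either held Xist alone.

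In the growth hormone axis, the hormone binds its receptor Ghr, activates the kinase Jak2 and the factors Stat5a and Stat5b, and through them raises transcription of Igf1. Igf1 and Igf2 signal through Igf1r, Igf2r carries Igf2 to the lysosome, and the binding proteins hold the ligands outside the cell, which can limit or prolong their action. H19 and Igf2 lie side by side and share enhancers and an imprinting control region, with H19 transcribed from the maternal and Igf2 from the paternal chromosome, and both are active in the fetus and decline after birth.

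The 8% of cells with the highest Scrublet scores in each library were removed as likely doublets, 388 control and 269 Gli2_EKO cells, while the automatic threshold marked 261 and 5. After this and a filter on gene number and mitochondrial share, 4456 control and 3093 Gli2_EKO cells remained, with a median of 11806 and 11909 UMIs. They were clustered without the 10 genes, so that no cluster was made by them. Clusters carrying markers of the interfollicular epidermis (IFE) form the epidermal class, all other keratinocyte clusters the follicle class, and the clusters of fibroblast lineage the dermal class. The epidermal class held 736 control cells, 16.5% (15.4 to 17.6) of the library, and 1010 Gli2_EKO cells, 32.7% (31.0 to 34.3). The follicle class held 2588 control cells, 58.1% (56.6 to 59.5), and 1292 Gli2_EKO cells, 41.8% (40.03 to 43.5). The dermal class held 843 control cells, 18.9% (17.8 to 20.1), and 644 Gli2_EKO cells, 20.8% (19.4 to 22.3). The control library was thus weighted towards follicle cells and the Gli2_EKO library towards epidermal cells, and for this reason levels are given within each class.

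The 13 keratinocyte clusters are numbered K0 to K12 and the 9 dermal clusters D0 to D8, by size, and K stands here for a cluster and not for a keratin. K0 and K5 were IFE basal-like and K3 IFE suprabasal-like. In the follicle class K1 was matrix-like, K4 upper follicle-like, K6 inner root sheath-like, K8 outer root sheath-like, K9 hair shaft-like, K11 companion layer-like and K12 sebaceous-like, while K2, K7 and K10 had Tagln together with Acta2 or Myl9, markers of the dermal sheath list, among their 10 leading genes and were left unnamed. Unnamed clusters made up 31.7% of control and 34.0% of Gli2_EKO follicle cells. In the dermal class D0 was fibroblast-like, D2 dermal sheath-like and D3 and D4 dermal papilla-like, and 5 clusters with 44.6% of control and 45.8% of Gli2_EKO dermal cells had no name, among them D1, with Fabp4 and Lpl of the adipocyte list among its leading genes. Because K2, K7, K10 and D1 were led by markers of another kind of cell, many of the ratios over the follicle and dermal classes are set beside those without these clusters, an alternative chosen after the data were seen, or beside single clusters. The keratinocyte list of 8 markers summed to 30009 and 33004 CPM in epidermal, 8685 and 11028.5 CPM in follicle and 395 and 351 CPM in dermal cells of the control and Gli2_EKO library. The 8 fibroblast markers summed to 114 and 102, 168 and 113, and 27812 and 24668 CPM in the same order, led by Col3a1 in the keratinocyte classes. Every marker of both lists had a UMI in the epidermal, the follicle and the dermal class of each library. With RNA of other cells in mind, each gene was also set against collagen and keratin UMIs.

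Levels are in CPM: for each class and library, the UMIs of the gene scaled by all UMIs of the same cells. The assay reads the polyA end of a transcript and counts each molecule once, so CPM was not divided by length. Levels of different genes are compared on this scale of molecules. Whether reads within introns were counted is not given in the sources used here. The genes differ in length, from 4696 bases for H19 to 265790 for Ghr and 281899 for Igf1r. The part of length in comparisons between genes was not tested. A log2 ratio sets the CPM of the Gli2_EKO library over that of the control library and is given for genes with at least 20 UMIs over both. Parentheses hold exact 95% intervals (Poisson for a level, Clopper-Pearson for a share, conditional binomial for a ratio), which speak of counting error and of nothing else.

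The 10 genes differed in the class of their highest level. H19 was highest in the epidermis, Igf1r and Ghr in the follicle, and Igf1, Igf2r, Igfbp3 and Igfbp4 in the dermis, in both libraries. Igf2, Igfbp2 and Igfbp5 had their highest level in dermal cells of the control library, whereas in the Gli2_EKO library Igf2 and Igfbp2 were highest in epidermal and Igfbp5 in follicle cells. Some of these places rest on clusters led by markers of other cells. Without K2, K7 and K10, Ghr was highest in dermal cells of both libraries and Igfbp5 in dermal cells of the Gli2_EKO library, while follicle and dermal levels of Igf1r overlapped in both. Without D1, Igf2 was highest in epidermal cells of both libraries. With all clusters, epidermal and dermal levels of Igf2 overlapped within counting error in each library. This gives 1, 2 and 7 genes with their highest level in epidermal, follicle and dermal cells of the control library, and 3, 3 and 4 in the Gli2_EKO library. When each cell was instead put in a class by its own markers, 0 genes were highest in follicle cells of either library and 7 were highest in dermal cells of the Gli2_EKO library. In that assignment 990 control and 567 Gli2_EKO cells, 22.2% and 18.3%, lay within 0.1 of the boundary between 2 classes.

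**Figure D1:**
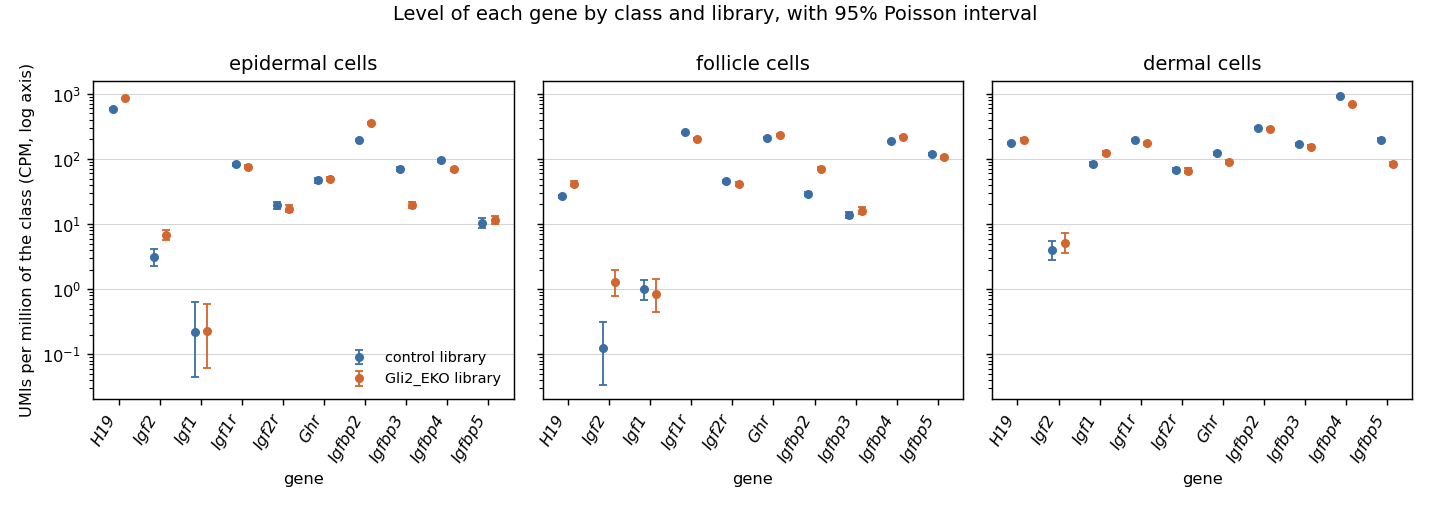
Level of each of the 10 genes in epidermal, follicle and dermal cells, in CPM on a log axis, 1 point per library with its 95% Poisson interval. H19 stands highest in epidermal cells and Igfbp4 in dermal cells, and Igf1 reaches over 10 CPM only in dermal cells.

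Between the libraries, few of the genes differed by more than 2-fold. In epidermal cells 1 of 9 genes with enough UMIs was more than 2-fold higher in the Gli2_EKO library, Igf2, against 1.92% of all 14814 genes measured there, and 1 was more than 2-fold lower, Igfbp3, against 4.10%. In follicle cells 2 of 10 were higher, Igfbp2 and, with 14 of its 20 Gli2_EKO UMIs in 1 cell, Igf2, against 2.42% of 17057 genes, and 0 were lower, against 3.46%. In dermal cells 0 of 10 were higher, against 1.75% of 14476 genes, and 1 was lower, Igfbp5, against 2.43%. The median log2 ratio of the 10 genes was 0.08 in epidermal cells over the 9 measured, 0.17 in follicle and -0.10 in dermal cells, beside -0.08, -0.06 and -0.01 for all genes measured. Which genes passed 2-fold depended on the processing. H19 was past 2-fold in follicle cells, with 1.18, without K2, K7 and K10. Igfbp2 joined Igf2 in epidermal cells, making 2, when every barcode was used, without integration and at resolution 1. Igfbp5 was no longer past 2-fold in dermal cells, leaving 0, when every barcode was used and when each cell was classed by its own markers. In follicle cells the higher count was 1 with own markers, without the top 1% of cells and in keratinocytes with no collagen UMI, and the lower count was 1 with every barcode and with own markers. No test was made of these counts, and the genes are described 1 by 1.

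**Figure D2:**
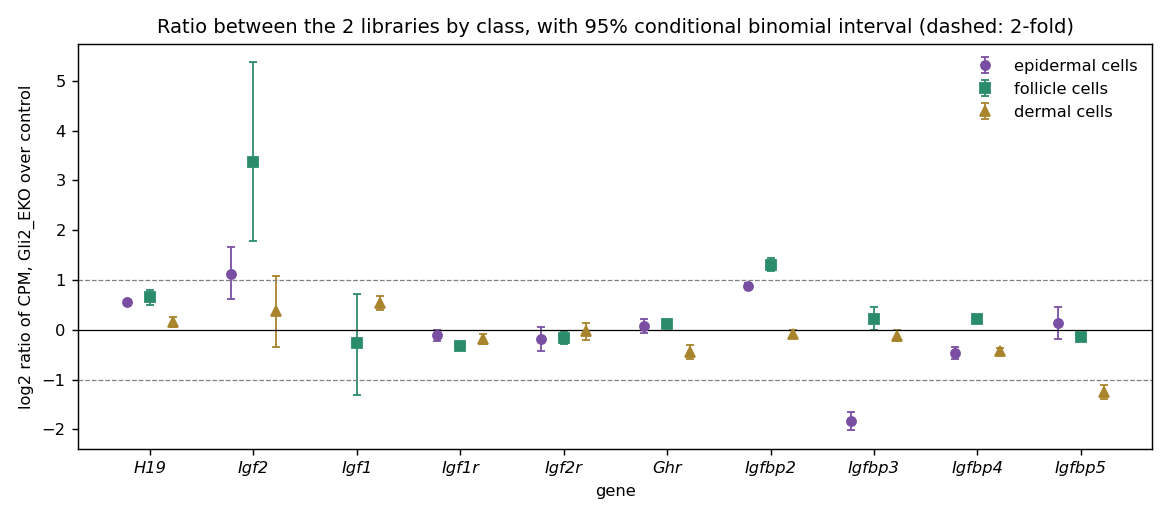
Log2 ratio of CPM, Gli2_EKO over control library, for each gene in the 3 classes, with its 95% conditional binomial interval; dashed lines mark 2-fold. Igfbp3 in epidermal and Igfbp5 in dermal cells lie below the lower line, and Igf2 in epidermal and follicle and Igfbp2 in follicle cells above the upper one.

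H19 (ENSMUSG00000000031, chr7:142129262-142133957, minus strand, GRCm39) is a long non-coding RNA of growing fetal tissue and the host of the microRNA miR-675. In epidermal cells it had 583 CPM (570.3 to 596) in the control and 859 CPM (845 to 873) in the Gli2_EKO library, a ratio of 0.56 (0.52 to 0.60). In dermal cells it had 176 CPM (168 to 185) in the control and 197 CPM (186 to 208) in the Gli2_EKO library, and in follicle cells 26.5 CPM (24.8 to 28.4) in the control and 41.7 CPM (38.6 to 45.1) in the Gli2_EKO library. The order epidermal over dermal over follicle held in both libraries, with no overlap of neighbouring intervals. The gap between dermal and follicle cells rests largely on the cluster D1, without which dermal cells had 49.9 CPM (45.1 to 55.1) in the control library and 42.8 CPM (37.4 to 48.7) in the Gli2_EKO library, the latter overlapping follicle cells. Epidermal cells carried 75.2% (74.4 to 76.0) of the control and 88.2% (87.7 to 88.7) of the Gli2_EKO UMIs of H19, although they held 23.4% and 42.1% of all UMIs.

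Within the epidermis H19 was highest in basal-like cells. The IFE basal-like cluster K0 had 1113 CPM (1081 to 1146) in the control and 1369 CPM (1338 to 1401) in the Gli2_EKO library, the highest level of any cluster in both. The second basal-like cluster, K5, which was led by cell cycle genes besides, had 552 CPM (531 to 574) in the control and 857 CPM (832 to 882) in the Gli2_EKO library, and the suprabasal-like cluster K3 199 CPM (187 to 212) in the control and 442 CPM (427 to 459) in the Gli2_EKO library. The descent from K0 over K5 to K3 therefore went beyond counting error in each library. The ratio between the libraries ran the other way, from 0.30 (0.24 to 0.35) in K0 and 0.63 (0.56 to 0.70) in K5 to 1.15 (1.05 to 1.25) in K3, so that among epidermal clusters the suprabasal-like cells differed most.

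Outside the epidermis, the dermal cluster D1 stood apart with 656 CPM (621 to 692) in the control and 796 CPM (749.5 to 845) in the Gli2_EKO library, above K5 in the control library and overlapping it in the Gli2_EKO library, while the other dermal clusters reached at most 85.1 CPM in the control library and 72.5 CPM in the Gli2_EKO library, both in D5. The dermal ratio was 0.16 (0.06 to 0.27), and its sign depended on D1 and on few cells. Without D1 it was -0.22 (-0.47 to 0.02), and without the 1% of cells with the most H19 UMIs it was -0.0143.

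In the follicle class 1 cell carried much of the difference. A Gli2_EKO cell of the outer root sheath-like cluster K8 held 166 of the 655 follicle UMIs of H19, together with 14 UMIs of Igf2 and 17 of Igfbp5, among 23074 UMIs in all, of which 27 were of Krt14 and Krt5. What kind of cell it was cannot be told from its cluster. The ratio over all follicle cells was 0.65 (0.51 to 0.80), and 0.29 (0.13 to 0.45) once the cell with the most H19 UMIs was left out of each library. Without the 1% of follicle cells with the most H19 UMIs it was 0.0948. In K8 the ratio was 3.02 (2.52 to 3.55) with that cell and 0.33 (-0.40 to 1.05) without it, an interval that includes 0. Other follicle clusters were past 2-fold higher without that cell, K4 with 1.25 (0.67 to 1.83), where 21 of 64 Gli2_EKO UMIs lay in 1 cell, K6 with 1.01 (0.37 to 1.64) and the sebaceous-like K12 with 2.47 (1.70 to 3.32), where 69 of 77 Gli2_EKO UMIs lay in 1 other cell, whereas K7 was lower, with -0.57 (-0.96 to -0.20). H19 was low in K4, with 12.3 CPM in the control and 29.3 CPM in the Gli2_EKO library, and in K6, with 13.4 and 27.1 CPM. Immune-like cells had 13.8 and 16.2 CPM. Ratios of K4 and K12 without their 1 cell were not computed. Without the clusters K2, K7 and K10 the follicle ratio was 1.18 (1.00 to 1.37), and that value still contains the K8 cell. This look at single cells was chosen after the values were seen.

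In the 5 smaller classes, H19 was highest in endothelial-like cells, 130.3 CPM (91.3 to 180.4) in the control and 446 CPM (309 to 623) in the Gli2_EKO library. Their ratio of 1.77 (1.05 to 2.49) comes from 24 and 7 cells. Over both libraries H19 had between 5.96 CPM and 14.7 CPM in melanocyte-like, Schwann-like, immune-like and mural-like cells. The miRNA arms of its hairpin are shown because H19 is the gene of highest level in the epidermis here and these are the parts of its transcript with a product of their own. In RefSeq on GRCm38.p6 they lie at chr7:142577078-142577099 and chr7:142577112-142577133 on the minus strand, and capitals mark the seed, bases 2 to 8.
mmu-miR-675-3p: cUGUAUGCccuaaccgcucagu
mmu-miR-675-5p: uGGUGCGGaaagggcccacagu
The seeds of both arms differ from each other. The entry of the hairpin gene Mir675, which shares 84 exon bases with H19, had 0 UMIs in both libraries, and mature miRNAs are not captured by a polyA assay, so miR-675 was not measured.

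Igf2 (ENSMUSG00000048583, chr7:142204503-142220694, minus strand, GRCm39), the fetal growth factor next to H19, had few UMIs. It had 3.11 CPM (2.25 to 4.19) in the control and 6.81 CPM (5.64 to 8.15) in the Gli2_EKO library in epidermal cells, from 43 and 119 UMIs, and the epidermal ratio was 1.13 (0.62 to 1.67), an interval that reaches below 2-fold. Dermal cells had 3.97 CPM (2.82 to 5.43) in the control and 5.14 CPM (3.56 to 7.18) in the Gli2_EKO library, a ratio of 0.37 (-0.34 to 1.07) whose interval includes 0. Follicle cells had 0.124 CPM (0.0337 to 0.317) in the control and 1.27 CPM (0.779 to 1.97) in the Gli2_EKO library, from 4 and 20 UMIs, a ratio of 3.36 (1.79 to 5.37). Once the cell with the most H19 UMIs was left out of each library, 4 and 6 UMIs of Igf2 remained. These are fewer than the 20 UMIs set for a ratio. The value from them was 1.63, still past 2-fold, but with an interval that includes 0. The follicle ratio of Igf2 thus reaches enough UMIs, and an interval without 0, only with that 1 Gli2_EKO cell. The gene Gm49394, on the same strand, shares 58.4% of the exon bases of Igf2, ends at the same base and had 0 UMIs. How reads between them were assigned is therefore uncertain, and with it the level of Igf2.

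The few Igf2 UMIs lay where H19 was high. Dermal cluster D1 had 16.1 CPM (11.1 to 22.6) in the control and 21.4 CPM (14.3 to 30.8) in the Gli2_EKO library, the highest level in both libraries, and the basal-like cluster K0 had 4.001 CPM (2.29 to 6.50) in the control and 9.17 CPM (6.81 to 12.1) in the Gli2_EKO library. In the Gli2_EKO library K8 came between them with 10.47 CPM (5.86 to 17.3), overlapping both, and 14 of its 15 Igf2 UMIs lay in 1 cell. Over the clusters, the immune-like, melanocyte-like and mural-like classes and both libraries, the levels of Igf2 and H19 had a Pearson r of 0.74 across 48 points, which share libraries and depth. Among epidermal cells with an Igf2 UMI, 36 of 36 in the control library and 93 of 96 in the Gli2_EKO library also had an H19 UMI, against 56.0% and 69.5% of the cells without one. Their H19 level was 1598 CPM (1512 to 1688) against 521 CPM (508 to 533) in the control library, and 1684.5 CPM (1629.6 to 1741) against 746 CPM (732 to 759) in the Gli2_EKO library. In dermal cells the same comparison gave 1168.5 against 133 CPM and 1440.1 against 132 CPM. Cells with an Igf2 UMI were deeper, with a median of 21367 against 16485 UMIs in control and 19726.5 against 15511 in Gli2_EKO epidermal cells. The comparison was chosen after the values were seen, and the part of depth and of doublets in it was not tested.

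Igf1 (ENSMUSG00000020053, chr10:87693642-87772904, plus strand, GRCm39), the ligand whose transcription growth hormone raises, was a dermal and immune transcript. Dermal cells had 84.9 CPM (79.3 to 90.9) in the control and 124 CPM (115 to 133) in the Gli2_EKO library, a ratio of 0.54 (0.40 to 0.68), and 0.85 (0.66 to 1.04) without D1. Its dermal level was highest in D1 with 206 CPM (187 to 226) in the control and 233 CPM (208 to 261) in the Gli2_EKO library, in the fibroblast-like D0 with 146 CPM (127 to 167) in the control and 223 CPM (198 to 249.8) in the Gli2_EKO library and in the dermal papilla-like D3 with 129 CPM (102 to 162) in the control and 191 CPM (158 to 229) in the Gli2_EKO library. In the control library D1 was above D0 and D3, which overlapped, and in the Gli2_EKO library the 3 overlapped. Each of the other 6 dermal clusters was lower than D3, at most 46.0 CPM in the control (D6) and 41.4 CPM in the Gli2_EKO library (D5). The other dermal papilla-like cluster, D4, had only 21.9 CPM (13.7 to 33.2) and 35.6 CPM (19.9 to 58.6). Between the libraries D0 had a ratio of 0.60 (0.34 to 0.87) and D1 of 0.18 (-0.03 to 0.40), while D6, with few UMIs, had -1.67 (-3.24 to -0.37). Immune-like cells had 176 CPM (150.04 to 205) in the control and 253 CPM (213 to 298) in the Gli2_EKO library, a ratio of 0.53 (0.19 to 0.86). Keratinocytes held next to none. Epidermal cells had 0.217 CPM (0.0448 to 0.634) in the control and 0.229 CPM (0.0624 to 0.586) in the Gli2_EKO library, and follicle cells 0.991 CPM (0.678 to 1.40) in the control and 0.829 CPM (0.441 to 1.42) in the Gli2_EKO library, levels that overlap in the Gli2_EKO library. Of the smaller classes but immune-like cells, endothelial-like cells had most, 73.7 CPM over both libraries, and melanocyte-like cells least, 1.49 CPM.

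Igf1r (ENSMUSG00000005533, chr7:67601518-67883416, plus strand, GRCm39), the signalling receptor of both ligands, was found in every class. Follicle cells had 257 CPM (252 to 263) in the control and 205 CPM (198 to 212) in the Gli2_EKO library, dermal cells 196 CPM (187 to 205) in the control and 173 CPM (163 to 183) in the Gli2_EKO library and epidermal cells 82.4 CPM (77.7 to 87.3) in the control and 76.4 CPM (72.4 to 80.7) in the Gli2_EKO library. This order held without overlap in both libraries, but follicle over dermal rests on K2, K7 and K10. Without them follicle cells had 200.4 CPM (195 to 206) in the control library and 159.7 CPM (152 to 168) in the Gli2_EKO library, and both intervals overlap those of dermal cells. Apart from D8, a cluster of 25 control and 9 Gli2_EKO cells, the unnamed K10 had the highest level, 610.4 CPM (576 to 647) in the control and 617 CPM (558 to 679) in the Gli2_EKO library, and the sebaceous-like K12 the lowest, 27.2 CPM (17.9 to 39.6) in the control and 24.6 CPM (15.0 to 38.1) in the Gli2_EKO library. Between the libraries the follicle ratio was -0.33 (-0.39 to -0.27), and -0.33 (-0.41 to -0.25) without K2, K7 and K10. The lower level in Gli2_EKO cells lay in the inner root sheath-like K6 with -0.57 (-0.75 to -0.39), in K2 with -0.45 (-0.58 to -0.32), in K7 with -0.31 (-0.46 to -0.15) and in the matrix-like K1 with -0.28 (-0.45 to -0.12). In K4, K8, K9, K10, K11 and K12 the intervals include 0. The dermal ratio was -0.18 (-0.29 to -0.07) and the epidermal ratio -0.11 (-0.22 to 0.01), so no class reached 2-fold. Over both libraries endothelial-like cells had 406 CPM and Schwann-like cells 389.6 CPM, above all 3 classes, mural-like cells 249.6 CPM, melanocyte-like cells 159 CPM and immune-like cells 44.0 CPM.

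Igf2r (ENSMUSG00000023830, chr17:12901293-12988614, minus strand, GRCm39), the receptor that clears Igf2, had 67.7 CPM (62.7 to 73.1) in the control and 66.2 CPM (60.2 to 72.7) in the Gli2_EKO library in dermal cells, 45.7 CPM (43.4 to 48.1) in the control and 41.0 CPM (37.9 to 44.3) in the Gli2_EKO library in follicle cells and 19.5 CPM (17.3 to 22.0) in the control and 17.3 CPM (15.4 to 19.4) in the Gli2_EKO library in epidermal cells. The ratios of -0.03 (-0.21 to 0.14), -0.16 (-0.29 to -0.02) and -0.18 (-0.42 to 0.07) were small, and the dermal and epidermal intervals include 0. Single clusters differed more. D5, K4 and K11 were lower, with -0.85 (-1.43 to -0.30), -0.76 (-1.44 to -0.12) and -0.50 (-0.95 to -0.07), and K9 was higher, with 0.75 (0.04 to 1.42). Of the numbered clusters D1 was highest with 115 CPM (101 to 130.5) in the control and 115 CPM (97.2 to 134) in the Gli2_EKO library, and its interval overlapped that of K10 in both libraries. Mural-like cells had 180.4 CPM (136 to 235) in the control and 111 CPM (66.6 to 173) in the Gli2_EKO library, above D1 in the control library and overlapping it in the Gli2_EKO library. Melanocyte-like cells had 94.4 CPM and endothelial-like cells 93.6 CPM over both libraries, and immune-like cells had a ratio of -2.46 (-4.82 to -0.77) from 28 and 3 UMIs. The imprinted antisense transcript Airn starts within Igf2r on the opposite strand and shares 0 exon bases with it. Whether strand was used in counting is not given in the sources used here, and Airn had more UMIs than Igf2r, so the level of Igf2r may hold reads of Airn.

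Ghr (ENSMUSG00000055737, chr15:3347235-3613024, minus strand, GRCm39), the receptor for growth hormone, was concentrated in the 3 unnamed follicle clusters. K10 had 899.8 CPM (857 to 944) in the control and 1223 CPM (1139.9 to 1309.8) in the Gli2_EKO library, K2 749 CPM (723 to 776) in the control and 714 CPM (679.6 to 750.0) in the Gli2_EKO library and K7 303 CPM (287 to 319) in the control and 338 CPM (314 to 362) in the Gli2_EKO library, an order without overlap in either library. The matrix-like K1, by contrast, had 10.2 CPM (7.89 to 12.9) in the control and 4.26 CPM (2.20 to 7.45) in the Gli2_EKO library. Over the whole follicle class the level was 212 CPM (207 to 217) in the control and 229.8 CPM (222 to 237) in the Gli2_EKO library, and 32.8 CPM (30.4 to 35.3) in the control library and 40.7 CPM (36.9 to 44.7) in the Gli2_EKO library once K2, K7 and K10 were left out, less than in dermal or epidermal cells, so that the first place of the follicle class rests on these clusters. Dermal cells had 123 CPM (116 to 129.8) in the control and 90.1 CPM (83.0 to 97.6) in the Gli2_EKO library and epidermal cells 46.8 CPM (43.3 to 50.6) in the control and 49.4 CPM (46.1 to 52.8) in the Gli2_EKO library. The suprabasal-like K3, with 71.9 CPM (64.8 to 79.6) and 73.6 CPM (67.2 to 80.5), was above the basal-like K0, with 41.3 CPM (35.2 to 48.1) and 42.6 CPM (37.3 to 48.4), unlike H19. Of the smaller classes endothelial-like cells had most, 148 CPM (106 to 201) in the control and 301 CPM (191 to 452) in the Gli2_EKO library, a ratio of 1.02 (0.22 to 1.79), and melanocyte-like cells had a ratio of -1.29 (-2.07 to -0.58).

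Between the libraries Ghr was higher in K8, K10 and K7 of the Gli2_EKO library, with 0.46 (0.16 to 0.76), 0.44 (0.32 to 0.56) and 0.16 (0.03 to 0.29). It was lower past 2-fold in K1, with -1.25 (-2.27 to -0.36). It was also lower in dermal cells, with -0.44 (-0.59 to -0.30) and -0.66 (-0.85 to -0.48) without D1. Lower dermal levels past 2-fold were found in the dermal papilla-like D3, -1.18 (-2.17 to -0.26), and in the dermal sheath-like D2, with 147 CPM (131 to 164) in the control and 71.8 CPM (54.8 to 92.4) in the Gli2_EKO library, a ratio of -1.03 (-1.46 to -0.63). D0 and D5 were lower by less, with -0.51 (-0.88 to -0.14) and -0.47 (-0.92 to -0.03). In D1, which had 183 CPM (165 to 202) in the control and 178 CPM (156 to 202) in the Gli2_EKO library, the ratio was -0.04 (-0.28 to 0.20). Over the whole follicle and epidermal classes the ratios were 0.12 (0.06 to 0.17) and 0.08 (-0.07 to 0.23), the latter -0.13 with own markers.

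**Figure D3:**
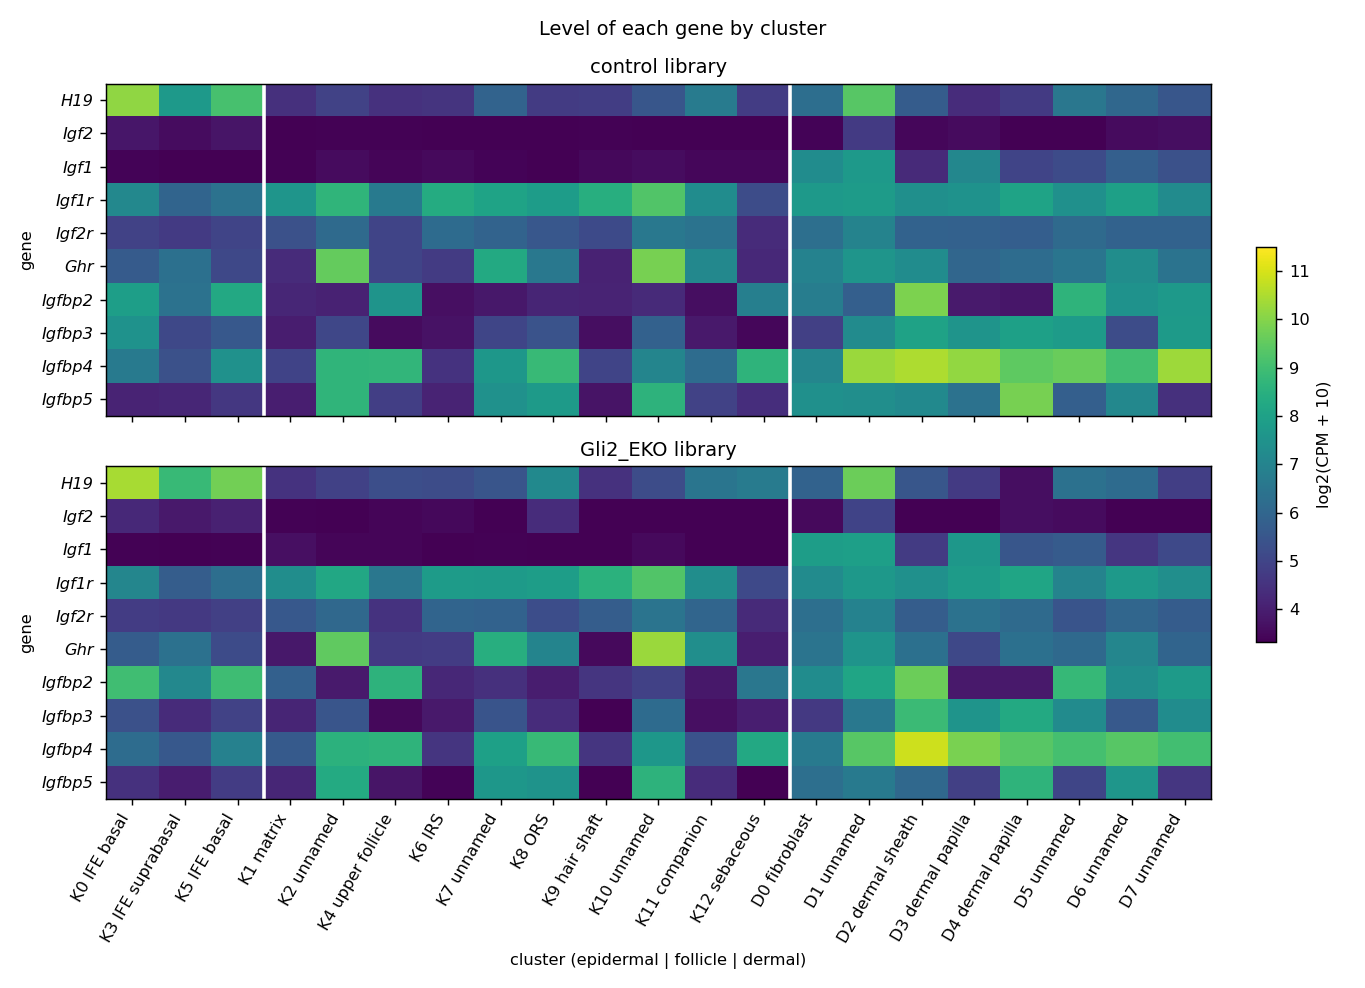
Level of each gene in the numbered clusters as log2(CPM + 10), 1 panel per library, with epidermal, follicle and dermal clusters from left to right. Igf2 is near the floor of the colour scale throughout, H19 is bright in K0, K5 and D1, Ghr in K2, K7 and K10, and Igfbp4 in most dermal clusters.

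Igfbp2 (ENSMUSG00000039323, chr1:72863606-72891634, plus strand, GRCm39), a binding protein for both ligands, was higher in the epidermal and follicle classes of the Gli2_EKO library. Epidermal cells had 194 CPM (187 to 202) in the control and 358 CPM (349 to 367) in the Gli2_EKO library, a ratio of 0.88 (0.82 to 0.95). Follicle cells had 28.7 CPM (26.9 to 30.6) in the control and 71.1 CPM (67.0 to 75.4) in the Gli2_EKO library, a ratio of 1.31 (1.18 to 1.44), and 1.36 (1.22 to 1.49) without K2, K7 and K10. Dermal cells did not share the difference and had 303 CPM (293 to 314) in the control and 286 CPM (274 to 299.5) in the Gli2_EKO library, a ratio of -0.08 (-0.17 to 0.00). With no doublet removal and with every barcode the dermal ratio was above 0, 0.23 and 0.22. The order of levels was dermal, epidermal, follicle in the control and epidermal, dermal, follicle in the Gli2_EKO library, without overlap.

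The higher level was seen in each IFE cluster, 1.12 (1.01 to 1.23) in K0, 0.73 (0.64 to 0.83) in K5 and 0.82 (0.65 to 1.00) in K3. In the follicle the upper follicle-like K4 had the highest level, with 177 CPM (164 to 192) in the control and 378 CPM (353 to 405) in the Gli2_EKO library, and the matrix-like K1, where it was low, had 8.36 CPM (6.32 to 10.9) in the control and 47.2 CPM (39.6 to 56.0) in the Gli2_EKO library, the ratios being 1.09 (0.94 to 1.24) and 2.50 (2.04 to 2.98). The sebaceous-like K12 had 105 CPM (85.6 to 127) in the control and 85.0 CPM (66.1 to 108) in the Gli2_EKO library, with an interval of the ratio, -0.30 (-0.76 to 0.15), that includes 0. Ratios below 0 whose intervals include 0 were also found in K2, -0.54 (-1.69 to 0.50), and K8, -0.52 (-1.92 to 0.74). In the dermis D2, the dermal sheath-like cluster, was highest with 944 CPM (902 to 987) in the control and 801 CPM (741 to 864) in the Gli2_EKO library, and D1 had the highest dermal ratio, 2.56 (2.23 to 2.91), with 45.4 CPM (36.7 to 55.7) and 269 CPM (242 to 298). Without D1 the dermal ratio was -0.35 (-0.44 to -0.26). The other dermal clusters did not all share that sign, with 0.56 (0.24 to 0.88) in D0, -0.24 (-0.37 to -0.11) in D2 and intervals that include 0 in D5, D6 and D7. D2 held 133 of 843 control and 64 of 644 Gli2_EKO dermal cells, so the ratio without D1 also carries a different mix of clusters. Schwann-like cells, 39 and 8 in number, had 235 CPM (192 to 284) in the control and 516 CPM (359 to 717) in the Gli2_EKO library, while the other smaller classes were at most 5.67 CPM over both libraries.

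Igfbp3 (ENSMUSG00000020427, chr11:7156086-7164179, minus strand, GRCm39), the main carrier of Igf1 in blood, was lower in the Gli2_EKO epidermis. Epidermal cells had 70.4 CPM (66.0 to 75.0) in the control and 19.7 CPM (17.7 to 21.9) in the Gli2_EKO library, a ratio of -1.84 (-2.02 to -1.66) and the lowest of the 10 genes in the epidermal, follicle and dermal classes. The difference was largest in K0, with 169 CPM (157 to 182) in the control and 30.5 CPM (26.0 to 35.5) in the Gli2_EKO library, a ratio of -2.47 (-2.73 to -2.23), and was -1.22 (-1.67 to -0.78) in K3 and -0.86 (-1.22 to -0.51) in K5. K0 was thus the epidermal cluster with both the highest control level and the largest difference, and in the Gli2_EKO library it was still above K5, with 20.5 CPM (16.8 to 24.7). Among follicle clusters K8 was also lower, with 32.9 CPM (26.0 to 41.1) and 10.47 CPM (5.86 to 17.3), a ratio of -1.65 (-2.56 to -0.84). K2 and K7 went the other way, with 0.57 (0.12 to 1.02) and 0.57 (0.13 to 1.01), and the whole follicle class, with 13.7 CPM (12.5 to 15.1) in the control and 16.1 CPM (14.1 to 18.2) in the Gli2_EKO library, had a ratio of 0.23 (0.00 to 0.45), and -0.39 (-0.86 to 0.06) without K2, K7 and K10. Epidermal and follicle levels of the Gli2_EKO library overlap, and those of the control library do not.

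The dermis held the highest Igfbp3 level of the 3 classes, 167 CPM (159 to 176) in the control and 154 CPM (145 to 164) in the Gli2_EKO library, a ratio of -0.12 (-0.23 to 0.00). There, too, clusters differed in direction. The dermal sheath-like D2 had 251.1 CPM (229.8 to 274) in the control and 466 CPM (420.5 to 514) in the Gli2_EKO library, a ratio of 0.89 (0.70 to 1.08), while D1 had 143 CPM (127 to 161) in the control and 87.2 CPM (72.2 to 104) in the Gli2_EKO library, a ratio of -0.72 (-1.04 to -0.40). The small dermal ratio is therefore a sum of unlike clusters. Endothelial-like cells had 102 CPM over both libraries. Mural-like cells had 32.8 CPM (15.7 to 60.3) in the control and 111 CPM (66.6 to 173) in the Gli2_EKO library, a ratio of 1.75 (0.58 to 3.02), and the other smaller classes had less than either over both libraries.

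Igfbp4 (ENSMUSG00000017493, chr11:98932064-98945218, plus strand, GRCm39), a binding protein cut by the protease Pappa, had the highest dermal level of the 10 genes. Dermal cells had 924 CPM (905 to 943) in the control and 689.5 CPM (669.6 to 709.8) in the Gli2_EKO library, follicle cells 187 CPM (183 to 192) in the control and 217 CPM (210.1 to 225) in the Gli2_EKO library and epidermal cells 95.1 CPM (90.1 to 100.4) in the control and 68.9 CPM (65.1 to 72.9) in the Gli2_EKO library, without overlap in either library. D2 was highest with 1432 CPM (1380.4 to 1485) in the control and 1884 CPM (1792 to 1979) in the Gli2_EKO library. In follicle cells K8, K4, K2 and K12 lay between 389.8 CPM (K12) and 442 CPM (K8) in the control library, and the inner root sheath-like K6 had 13.2 CPM (9.70 to 17.4). The dermal ratio was -0.42 (-0.47 to -0.37), and -0.27 (-0.33 to -0.21) without D1. It joined a lower level in D1, -0.90 (-1.01 to -0.79), and in D7, -1.31 (-1.53 to -1.09), with a higher one in D2, 0.40 (0.31 to 0.48). The epidermal ratio was -0.46 (-0.58 to -0.35) and the follicle ratio 0.22 (0.15 to 0.28). Follicle clusters went both ways. K11, past 2-fold, and K12 were lower, with -1.02 (-1.59 to -0.48) and -0.41 (-0.65 to -0.17). K1, K10 and K7 were higher, with 0.91 (0.54 to 1.28), 0.62 (0.30 to 0.94) and 0.34 (0.18 to 0.49). Among the smaller classes it was higher past 2-fold in the Gli2_EKO library in endothelial-like cells, 246 CPM (191 to 312) in the control and 852 CPM (658 to 1086) in the Gli2_EKO library, a ratio of 1.79 (1.28 to 2.30), and in immune-like cells, 118 CPM (96.7 to 142) in the control and 242 CPM (203 to 287) in the Gli2_EKO library, a ratio of 1.04 (0.67 to 1.42). Few UMIs gave a ratio of 2.07 (0.68 to 3.38) in Schwann-like and of -2.40 (-4.77 to -0.67) in melanocyte-like cells.

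Igfbp5 (ENSMUSG00000026185, chr1:72897091-72914043, minus strand, GRCm39), a binding protein that attaches to the extracellular matrix, was lower in the Gli2_EKO dermis. Dermal cells had 198 CPM (189 to 207) in the control and 83.8 CPM (76.9 to 91.0) in the Gli2_EKO library, a ratio of -1.24 (-1.38 to -1.10), and -1.36 (-1.52 to -1.21) without D1. The dermal papilla-like D4 was highest among the dermal clusters, with 896 CPM (838 to 956) in the control and 391 CPM (334 to 456) in the Gli2_EKO library, a ratio of -1.20 (-1.44 to -0.95). Lower levels were also found in D0, -1.22 (-1.58 to -0.86), in D2, -1.22 (-1.69 to -0.78), in D3, -1.93 (-2.99 to -0.98), in D5, -1.04 (-1.74 to -0.37), and in D1, -0.73 (-1.04 to -0.42), whereas D6 was higher, 0.54 (0.06 to 1.01). Follicle cells had 118 CPM (114 to 122) in the control and 106 CPM (101 to 112) in the Gli2_EKO library, a ratio of -0.15 (-0.23 to -0.06), and -0.19 (-0.40 to 0.01) without K2, K7 and K10. Single follicle clusters differed, with lower levels past 2-fold where it was low, -2.37 (-3.64 to -1.31) in K4 and -3.50 (-8.86 to -0.91) in K6, and -0.38 (-0.51 to -0.25) in K2, -0.26 (-0.49 to -0.04) in K8 and -0.98 (-2.04 to -0.03) in K11, whereas K7 was higher, 0.22 (0.04 to 0.39). The follicle class had the highest levels in K2, 399.5 CPM (380.3 to 419) and 308 CPM (285 to 331), and K10, 382 CPM (354 to 411) and 377 CPM (332 to 427). Mural-like cells, 26 and 20 in number, had the highest level of all classes, 1332 CPM (1205 to 1468) in the control and 1338.5 CPM (1171 to 1523) in the Gli2_EKO library, and a ratio near 0, 0.01 (-0.23 to 0.24). Schwann-like cells had 724 CPM over both libraries. Epidermal cells had little, 10.3 CPM (8.72 to 12.2) in the control and 11.4 CPM (9.87 to 13.1) in the Gli2_EKO library, a ratio of 0.14 (-0.18 to 0.46), which was -0.61 with each cell classed by its own markers. Dermal levels were above follicle levels in the control and below them in the Gli2_EKO library, without overlap, but follicle cells without K2, K7 and K10 had 31.9 CPM (29.5 to 34.3) in the control library and 27.9 CPM (24.8 to 31.2) in the Gli2_EKO library, below dermal cells in both. The follicle ratio, too, turned with own markers, to 0.0653.

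Igfbp2 and Igfbp5 are neighbours on chromosome 1, 5456 bases apart and transcribed from opposite strands. Igfbp2 was higher in the Gli2_EKO library past 2-fold in 7 and lower in 0 of the 18 clusters with enough UMIs and at least 20 cells in each library, and Igfbp5 was lower in 7 and higher in 0 of 18. D8, with 25 and 9 cells, is left out of these counts, and its ratio for Igfbp2 was -2.53 (-7.89 to 0.09) from 23 and 1 UMIs. The counts come mostly from different clusters, with only K4 and K6 in both. In K0 and K7, where Igfbp2 was past 2-fold higher, Igfbp5 was higher too, with 0.71 (0.07 to 1.39) and 0.22 (0.04 to 0.39). Clusters of the same 2 libraries are not repeats, and the share of all genes past 2-fold was not computed per cluster. For the binding protein genes past 2-fold in 1 of the 3 classes a promoter is shown, from RefSeq on GRCm38.p6, 250 bases before to 50 after the start site. The choice of genes and the marking of CG pairs in capitals were made after the values were seen.
Igfbp2 promoter 1, chr1:72824230-72824529, plus strand: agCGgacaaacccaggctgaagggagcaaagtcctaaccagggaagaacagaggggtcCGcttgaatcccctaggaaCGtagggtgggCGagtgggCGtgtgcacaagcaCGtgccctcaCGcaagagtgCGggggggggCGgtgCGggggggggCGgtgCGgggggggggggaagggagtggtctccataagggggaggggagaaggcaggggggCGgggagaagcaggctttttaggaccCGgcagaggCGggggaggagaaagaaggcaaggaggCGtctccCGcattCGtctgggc
Igfbp5 promoter, chr1:72874816-72875115, minus strand: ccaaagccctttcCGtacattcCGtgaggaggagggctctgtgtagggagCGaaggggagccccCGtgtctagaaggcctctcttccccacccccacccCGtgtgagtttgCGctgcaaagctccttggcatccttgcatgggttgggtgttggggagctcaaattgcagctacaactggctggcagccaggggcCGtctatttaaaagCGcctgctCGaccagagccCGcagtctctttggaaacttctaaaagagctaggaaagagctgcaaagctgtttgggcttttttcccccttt
Igfbp3 promoter, chr11:7213874-7214173, minus strand: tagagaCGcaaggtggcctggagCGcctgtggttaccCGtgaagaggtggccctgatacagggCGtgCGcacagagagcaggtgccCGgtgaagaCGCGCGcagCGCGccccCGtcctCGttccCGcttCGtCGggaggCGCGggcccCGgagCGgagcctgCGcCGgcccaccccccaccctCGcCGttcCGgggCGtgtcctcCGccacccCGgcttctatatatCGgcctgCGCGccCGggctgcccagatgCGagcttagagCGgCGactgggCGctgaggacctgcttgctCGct
They hold 18, 10 and 37 CG pairs, beside a median of 7 over all 32851 promoters of the table. For 9 of the 10 genes the table has a promoter, 14 in all, and H19 is named only. Igfbp2 has a second promoter there, not shown, at chr1:72825137-72825436, with 14 CG pairs. The letters GACCACCCA, bound by GLI factors, were searched on both strands and found in 0 of the 9 genes and in 0.253% of all promoters. TTCNNNGAA, bound by Stat5, was found in 0 of the 9 genes and in 8.30% of all promoters. TATAAA was found in 2, in Igfbp4 at position -28 and, on the other strand, in promoter 2 of Ghr at position -188, and in 13.6% of all promoters. The motifs were chosen after the values were seen, a match is a description of letters, and the absence of a match says only that these letters are not in this window.

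How far a gene was carried by few cells was measured as the share of its UMIs in the 1% of cells with the most of them, 45 control and 31 Gli2_EKO cells. Those cells are chosen for the gene, so their share is a description of how unevenly it is spread. Igf2 and Igf1 were the most concentrated. The top cells held 72.5% (62.2 to 81.4) of the control and 44.5% (37.0 to 52.2) of the Gli2_EKO UMIs of Igf2, while they held 1.78% and 1.83% of all UMIs. With 91 and 173 UMIs of Igf2 in all, the top cells hold a large share even at 1 UMI each. For Igf1 the shares were 55.2% (52.2 to 58.2) and 54.7% (51.5 to 57.8), beside 1.17% and 1.06% of all UMIs, and the top cells were dermal (37 of 45 and 24 of 31) or immune-like.

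H19 and Igfbp2 were less concentrated in the Gli2_EKO library than in the control library. For H19 the top 1% of cells held 27.5% (26.7 to 28.4) in the control and 16.8% (16.2 to 17.3) in the Gli2_EKO library, and the top 10% held 91.2% (90.7 to 91.8) and 74.0% (73.3 to 74.6). For Igfbp2 the top 1% held 26.0% (24.9 to 27.1) and 13.5% (12.8 to 14.2), and the top 10% 86.7% (85.9 to 87.5) and 62.2% (61.2 to 63.2). The share of cells in the epidermal class differed between the libraries as well, and within epidermal cells the top 1% held 9.16% (8.54 to 9.81) and 8.05% (7.62 to 8.49) of H19 and 10.4% (9.27 to 11.6) and 8.23% (7.56 to 8.94) of Igfbp2, a smaller gap than over all cells. In the top 10% of epidermal cells, 49.3% (48.2 to 50.4) and 40.2% (39.5 to 41.0) of H19 and 52.1% (50.2 to 54.0) and 39.2% (38.0 to 40.5) of Igfbp2 were found, again a smaller gap than over all cells. The part of the class shares in these gaps was not tested. For Igfbp2 30 of the 45 control top cells were dermal, against 8 of the 31 Gli2_EKO ones. In follicle cells the top 1% held 37.5% (34.2 to 40.8) and 57.4% (53.5 to 61.2) of H19. Of the 45 control cells with the most H19 39 were epidermal and 6 dermal, and of the 31 Gli2_EKO cells 25 were epidermal, 4 dermal and 2 of the follicle class.

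The remaining genes ranged from even to moderately concentrated. Igf1r was the most even, with 6.86% (6.42 to 7.33) and 6.35% (5.74 to 7.001) in the top 1%, beside 1.53% and 1.32% of all UMIs. Igf2r had 9.83% (8.73 to 11.03) and 9.52% (8.07 to 11.1). Ghr had 16.3% (15.6 to 17.1) and 16.9% (15.8 to 17.9), and every one of its 45 and 31 top cells was of the follicle class. Igfbp3 had 27.6% (26.0 to 29.2) and 32.6% (30.3 to 34.9), with 21 of 45 top cells epidermal in the control and 4 of 31 in the Gli2_EKO library. Dermal were 24 of 45 and 23 of 31. Igfbp4 had 16.4% (15.9 to 17.0) and 16.4% (15.6 to 17.1), with 45 of 45 and 30 of 31 top cells dermal. Igfbp5 had 20.4% (19.4 to 21.4) and 24.4% (22.8 to 26.1), with 19 dermal, 11 follicle, 7 mural-like, 7 Schwann-like and 1 epidermal cell at the top of the control library. For Igf1r 42 of 45 and 27 of 31 top cells were of the follicle class. For H19, Igf1, Igf1r, Ghr, Igfbp3 and Igfbp4 the top cells thus lay mostly in the class of highest level among epidermal, follicle and dermal cells. Over both libraries the smaller immune-like class had more Igf1 and the endothelial-like and Schwann-like classes more Igf1r. Igf2r went another way in the control library, where 20 top cells were of the follicle class and 13 dermal although its level was highest in dermal cells. For Igfbp5 16 of the 31 Gli2_EKO top cells were of the follicle class.

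The share of cells with a UMI was taken at an equal depth of 2000 UMIs drawn at random from every cell, which left out 1 and 3 epidermal, 4 and 10 follicle and 2 and 5 dermal cells of the control and Gli2_EKO library. Immune-like and endothelial-like cells together, with a median of 9507 and 11518 UMIs, served as background, beside medians of 16758 and 15930.5 in epidermal, 11318.5 and 10803 in follicle and 10610 and 9450.5 in dermal cells. H19 was found in 39.7% (36.2 to 43.4), 58.2% unthinned, of control and 52.4% (49.3 to 55.6), 72.1% unthinned, of Gli2_EKO epidermal cells. Its background was 8.33% (4.07 to 14.8), 17.5% unthinned, and 13.7% (5.70 to 26.3), 23.1% unthinned. Follicle cells had 4.72% (3.94 to 5.61), 16.7% unthinned, and 4.52% (3.45 to 5.81), 16.3% unthinned, and dermal cells 12.5% (10.3 to 14.9), 28.4% unthinned, and 10.2% (7.94 to 12.8), 25.3% unthinned. Endothelial-like cells held H19 of their own, so these cells are no background for H19 in follicle or dermal cells. Immune-like cells alone, a comparison chosen after the values were seen, had 3.12% (0.649 to 8.86), 11.46% unthinned, and 6.82% (1.43 to 18.7), 15.6% unthinned, intervals that the follicle shares and the Gli2_EKO dermal share overlap and that the epidermal shares and the control dermal share exceed.

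Igfbp2 was found in 23.5% (20.5 to 26.8), 54.2% unthinned, of control and 40.3% (37.3 to 43.4), 79.7% unthinned, of Gli2_EKO epidermal cells, against a background of 0.833% (0.0211 to 4.56), 3.33% unthinned, and 1.96% (0.0496 to 10.4), 1.92% unthinned. The larger share went with the higher CPM. Igfbp3 was found in 8.03% (6.17 to 10.2), 23.1% unthinned, and 2.98% (2.02 to 4.23), 11.3% unthinned, of epidermal cells, against 3.33% (0.916 to 8.31), 10.8% unthinned, and 1.96% (0.0496 to 10.4), 1.92% unthinned, but endothelial-like cells hold Igfbp3 themselves, so these cells are no background for it. In dermal cells it was found in 21.8% (19.01 to 24.7), 43.7% unthinned, and 16.3% (13.5 to 19.4), 35.1% unthinned. Igfbp5 was found in 18.3% (15.8 to 21.1), 35.5% unthinned, of control and 9.70% (7.52 to 12.3), 21.1% unthinned, of Gli2_EKO dermal cells, against 1.67% (0.202 to 5.89), 5.83% unthinned, and 1.96% (0.0496 to 10.4), 1.92% unthinned, in immune-like and endothelial-like cells. In the Gli2_EKO library endothelial-like cells held 170.4 CPM (90.7 to 291) of Igfbp5, from 13 UMIs in 1 cell, so they are no background for it there.

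Igf2 was found in 0.680% (0.221 to 1.58), 4.89% unthinned, and 1.59% (0.911 to 2.57), 9.50% unthinned, of epidermal cells, and in 0% (0 to 3.03) of 120 and 0% (0 to 6.98) of 51 background cells, too few cells to tell shares this small from a background. For the other genes the background cells are a source of their own, since Igf1 had 204 CPM in immune-like cells, and Igfbp4, Igf1r, Ghr and Igf2r had 377 CPM, 406 CPM, 182 CPM and 93.6 CPM in endothelial-like cells over both libraries. Igf1r was found in 38.7% (36.9 to 40.6), 80.4% unthinned, of control and 33.7% (31.1 to 36.4), 75.9% unthinned, of Gli2_EKO follicle cells, the largest share of the receptors. Igfbp4 was found in 55.5% (52.1 to 58.9), 75.4% unthinned, and 45.7% (41.8 to 49.6), 64.1% unthinned, of dermal cells. Ghr was found in 20.6% (19.1 to 22.2), 38.3% unthinned, and 24.4% (22.1 to 26.9), 41.9% unthinned, of follicle cells and in 20.1% (17.4 to 23.0), 51.5% unthinned, and 14.7% (12.1 to 17.7), 41.8% unthinned, of dermal cells, against 5% (1.86 to 10.6), 14.2% unthinned, and 7.84% (2.18 to 18.9), 15.4% unthinned, in immune-like and endothelial-like cells. Igf2r was found in 9.52% (8.42 to 10.7), 37.5% unthinned, of control follicle cells, against 12.5% (7.17 to 19.8), 24.2% unthinned, in those cells. Igf1 was found in 10.3% (8.37 to 12.6), 27.8% unthinned, and 14.1% (11.48 to 17.0), 29.7% unthinned, of dermal cells.

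Each gene was set against the UMIs of Col1a1, Col1a2 and Col3a1 together. RNA of burst dermal cells would hold 1 such ratio if it had the make-up of dermal cells, which was not measured. Igf1 had 0.00348 (0.00325 to 0.00373) UMIs per collagen UMI in dermal and 0.00215 (0.000444 to 0.00631) in epidermal cells of the control library, and 0.00579 (0.00540 to 0.00620) and 0.00258 (0.000702 to 0.00662) in the Gli2_EKO library. In follicle cells the ratio was 0.00694 (0.00474 to 0.00982) and 0.00849 (0.00451 to 0.0146), above the dermal one in the control library only. The epidermal interval of Igf1 thus overlapped the dermal one in each library. Where its few epidermal UMIs come from was not tested, and immune-like cells also held Igf1. H19 had 5.78 (5.46 to 6.13) and 9.67 (9.18 to 10.2) UMIs per collagen UMI in epidermal cells, against 0.00723 (0.00689 to 0.00758) and 0.00922 (0.00872 to 0.00973) in dermal cells. For each gene but Igf1, the ratio in epidermal and in follicle cells lay above the dermal ratio in both libraries, with intervals that do not overlap.

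The reverse ratio, to UMIs of Krt14 and Krt5 together, was taken for the dermal cells. H19 had 1.06 (0.991 to 1.14) and 1.15 (1.06 to 1.25) UMIs per keratin UMI in dermal cells, against 0.0363 (0.0355 to 0.0372) and 0.0446 (0.0439 to 0.0453) in epidermal cells. All 10 genes were above both keratinocyte classes in this ratio in both libraries. The collagens themselves gave 101 and 88.8 CPM in epidermal, 143 and 97.6 CPM in follicle and 24385 and 21375 CPM in dermal cells.

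Of 38 genes on a further list drawn up for the axis, 31 had enough UMIs in each class. The list runs from growth hormone receptor signalling to proteases of the binding proteins and also holds Plod1, an enzyme that modifies collagen. In epidermal cells 0 were more than 2-fold higher in the Gli2_EKO library and 2 lower, in follicle cells 0 and 0, and in dermal cells 1 and 0. Among all genes 1.92% and 4.10%, 2.42% and 3.46%, and 1.75% and 2.43% were so in these classes. The median log2 ratios of the list were 0.00, -0.13 and -0.27. Pappa, the protease that cuts Igfbp4, had the lowest epidermal ratio, -1.29 (-1.69 to -0.91), 12.1 against 4.92 CPM, and the lowest dermal ratio of the genes with at least 50 UMIs, -0.75 (-0.95 to -0.56). Grb14, an adaptor that inhibits receptor kinases, followed in epidermal cells with -1.03 (-1.4997 to -0.58), and the prolactin receptor Prlr with -0.90 (-1.07 to -0.73). At the other end of the epidermal list were Igfbp6 with 0.88 (0.33 to 1.45), the adaptor Irs1 with 0.50 (0.29 to 0.71) and the stanniocalcin Stc2 with 0.49 (-0.24 to 1.24).

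In follicle cells the highest ratios of the axis list were those of the protease Htra1, 0.55 (0.44 to 0.65), the feedback inhibitor Socs2, 0.30 (-0.13 to 0.73), and Stat5a, 0.22 (-0.13 to 0.56). The lowest were those of Grb10, -0.85 (-1.55 to -0.20), Plod1, -0.54 (-0.95 to -0.13), and Foxo3, -0.39 (-0.54 to -0.24). In dermal cells Stc1, an inhibitor of Pappa, was past 2-fold with 1.20 (0.35 to 2.09), from 20 and 31 UMIs, followed by the feedback inhibitor Cish with 0.48 (-0.25 to 1.21) and Igf2bp2 with 0.26 (0.02 to 0.49), and after Pappa the lowest were Stc2 with -0.61 (-1.20 to -0.04) and Grb14 with -0.60 (-0.85 to -0.35). The intervals of Socs2 in follicle cells and of Cish in dermal cells include 0. Both genes are named for their rank in that class, and the targets of Stat5 on the list were not tested as a set.

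Of 40 other genes listed as imprinted, 29 had enough UMIs in epidermal, 32 in follicle and 33 in dermal cells. Grb10 is also on the axis list. The counts do not tell parental alleles apart, so whether a gene of this list, Dcn and Ascl2 among them, is imprinted in these cells was not measured. In epidermal cells 4 were more than 2-fold higher in the Gli2_EKO library and 0 lower, in follicle cells 2 and 2, and in dermal cells 0 and 0, beside 1.92% and 4.10%, 2.42% and 3.46%, and 1.75% and 2.43% of all genes, with median log2 ratios of 0.17, -0.11 and -0.02. The 4 epidermal genes were Dcn, with 2.46 (2.27 to 2.64) at 20.2 against 111 CPM, Phlda2, with 1.58 (1.23 to 1.96), Slc22a18, with 1.24 (0.91 to 1.57), and Ascl2, named after its values were seen for being past 2-fold, at 3.04 against 6.70 CPM. The lowest epidermal ratios were those of Airn, -0.69 (-0.85 to -0.52), Kcnq1ot1, -0.27 (-0.37 to -0.17), and Peg3, -0.18 (-0.28 to -0.08).

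In follicle cells the highest ratios of imprinted genes with at least 50 UMIs were those of Rian, 1.55 (0.92 to 2.19), Phlda2, 1.14 (0.65 to 1.63), and Dlk1, 0.99 (0.13 to 1.83), and the lowest those of Sgce, -1.23 (-1.53 to -0.94), Mest, -0.9977 (-1.66 to -0.38), and Grb10. Peg10, at 0.929 against 0.127 CPM and also named after its values were seen, and Sgce were the 2 more than 2-fold lower. In dermal cells Cdkn1c, a growth-restraining gene of the same region as H19, had 0.88 (0.81 to 0.96), Peg10 0.88 (0.07 to 1.70) and Nnat 0.71 (0.46 to 0.97), and the lowest were Nap1l5 with -0.92 (-1.64 to -0.24), Slc38a4 with -0.91 (-1.42 to -0.43) and Peg3 with -0.80 (-0.86 to -0.75). Phlda2 was thus higher past 2-fold in both keratinocyte classes, and Peg3 among the lowest in both epidermal and dermal cells.

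For each gene, the 5 genes of most like level were sought among 13441 genes over 48 points, the groups with at least 20 cells in each library taken per library, that is 21 numbered clusters and the immune-like, melanocyte-like and mural-like classes, by Pearson r of log2(CPM + 10). The points share 2 libraries and their depths, and the r values describe likeness of level only. H19 was most like Mst1r, Serpinb10, Gm37266, Gdpd2 and Gm15987 (r = 0.75 to 0.71). Igf2 was most like Vegfd, Agtr2, Tmeff2, Rtn2 and Fmo1 (r = 0.79 to 0.69), and Igf1 most like Pde3b, 4933406I18Rik, Arsb, Ap2a2 and Man1a (r = 0.86 to 0.84). Among the receptors, Igf1r was most like Denn2b, Trio, Cplane1, Erc1 and Ptbp2 (r = 0.87 to 0.83), Igf2r most like Airn, Arhgap29, Ptk2 and Rhoc (r = 0.84 to 0.76), led by its antisense neighbour Airn, and Ghr most like Il11ra1, Fndc1, Smtn, Gm21955 and Fhl1 (r = 0.84 to 0.79).

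Igfbp2 was most like Ppp1r14b, Col7a1, Adh7, Cdon and Cbr3 (r = 0.77 to 0.72), Igfbp3 most like Gm17501, Cpa6, Frmd3, Nid1 and Glis2 (r = 0.82 to 0.80), Igfbp4 most like Papss2, Lman1, Fbln2, Gm37606 and Smarca2 (r = 0.79 to 0.76) and Igfbp5 most like Ehd3, Itga1, Klhl29, Slc4a3 and Prkca (r = 0.82 to 0.79). Among the 10 genes themselves, H19 and Igf2 had the highest r, 0.74, followed by Igf1r and Igf2r with 0.70, Ghr and Igfbp5 with 0.69, and Igfbp3 and Igfbp4 with 0.68. The lowest was that of Igf1r and Igfbp2, -0.37. Genes of the unnamed follicle clusters, Ghr, Igf1r and Igfbp5, went together over clusters, and so did H19 and Igfbp2, with 0.54.

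Such pairs also met in the same cells, at 2000 UMIs per cell and as pairs chosen after the values were seen. Ghr and Igfbp5 were found together in 8.48% (7.43 to 9.62) of control and 7.41% (6.04 to 8.98) of Gli2_EKO follicle cells, where the product of their single shares is 3.12% and 3.35%. H19 and Igfbp2 were found together in 13.1% (10.7 to 15.7) of control and 25.8% (23.1 to 28.6) of Gli2_EKO epidermal cells, where the product is 9.35% and 21.1%. Each pair thus lay above the product in that class. In both cases the clusters of the class differ widely in both genes, and the part of this in the share was not tested. In the other 2 classes the product lay within the interval of either pair in both libraries. Of 2 further pairs, Ghr and Igf1r lay above their product in follicle cells of both libraries, 11.1% (9.96 to 12.4) and 12.1% (10.4 to 14.0) against 7.99% and 8.23%, and below it in Gli2_EKO dermal cells, 2.97% (1.80 to 4.60) against 4.67%. Igfbp2 and Igfbp4 lay above theirs only in follicle and dermal cells of the control library.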

How the data were processed

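Single-cell 3' polyA libraries of 2 groups, 1 library each, were read as deposited: UMI counts per barcode and gene, which the authors made with Cell Ranger 9.0.1 on GRCm39. Kept were cells in which between 1000 and 8000 genes were found and mitochondrial genes held less than 15% of UMIs, and the 8% with the highest Scrublet scores per library (scanpy 1.11.5, expected rate 0.06) were removed. Clusters come from Seurat 5.3.0 (R 4.3.3, Matrix 1.6.5) with 2000 variable genes, without the 10 genes and the axis list, 20 principal components, a rewritten Harmony step (theta 2, sigma 0.1) and resolution 0.5, and are a rebuilt set, not the authors' clusters. The planned class of a cluster comes from fixed marker lists. The rule by detection share with its limit of 0.4, the order of cell types and the minimum score of 1 were set after seeing the data and replaced an earlier naming rule that mislabelled clusters. Levels, shares and ratios were computed in python 3.11.15 with numpy 2.4.6, scipy 1.17.1 and pandas 2.3.3, figures with matplotlib 3.10.9, and the scripts were tested on simulated data.

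Members and lists were chosen with earlier results of these data known. Named are the 10 genes, the 3 highest and 3 lowest log2 ratios of each list among its genes that reach 50 UMIs in total, and the 5 genes of highest Pearson r for each of the 10, over clusters with at least 20 cells in each library. For Igf2r 1 of these 5 is not reported here. Genes outside this rule are marked as chosen after their values were seen, and so were the summary counts of genes highest in a class, the pairs, the single cells, the motifs and the 2 settings that leave clusters out. With 1 library per group no test was made. Promoters and miRNAs are of RefSeq on GRCm38.p6, gene positions of GENCODE on GRCm39.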

Additional observations from a re-analysis of the deposited data

How the results depend on the processing

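No paired analysis was possible because both libraries carry replicate number 1 and each group has a single library. Each alternative altered a single choice, except that every barcode also means no doublet removal, and a value counts as kept when it stayed within its own 95% counting interval, or a count within 1.5 times of itself. Kept were 199 of 265 log2 ratios, with 63 moved and 3 reversed, 46 of 56 counts of the 10 genes past 2-fold, 77 of 100 counts of list genes, 38 of 42 counts of genes highest in a class and 25 of 52 shares of all genes. Reversed means that the sign changed where the reported interval excluded 0. The sign also changed in some settings for ratios whose interval included 0, those of Ghr and Igfbp5 in epidermal, Igf1 and Igfbp3 in follicle and Igfbp2 in dermal cells. For single genes, kept were 192 of 500 levels in CPM, 140 of 300 shares by class, 77 of 120 shares in the top cells, 5 of 60 shares of cells with a UMI and 136 of 340 ratios to collagen or keratin UMIs, and the others moved. In epidermal cells Igfbp3 was lower past 2-fold in 9 of 9 settings, from -2.41 to -1.66, and Igf2 higher past 2-fold in 9 of 9, from 1.12 to 1.70. In follicle cells Igfbp2 was higher past 2-fold in 10 of 10, from 1.10 to 1.66, and in dermal cells Igfbp5 was lower in 9 of 9 and past 2-fold in 7, from -1.36 to -0.84. The 2 settings without K2, K7 and K10 and without D1 were chosen after seeing the data. The counts of the lists were not computed without the top 1% of cells, as those cells differ by gene. The cause of each value below was not tested, except that shares of all genes with fewer UMIs hold more counting error by construction. Igf2 had the fewest UMIs of the 10 genes, 91 and 173. The part of depth and of its overlap with Gm49394 in this was not tested.

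With no doublet removal, the log2 ratios were in follicle cells Igfbp2 1.17, in dermal cells H19 0.37, Igf1 0.74, Igfbp2 0.23, Igfbp4 -0.32 and Igfbp5 -1.02, the count of the axis list past 2-fold was 1 higher in epidermal cells, 1 lower in epidermal cells and 0 higher in dermal cells, the count of the imprinted list past 2-fold was 3 higher in dermal cells, and the shares of all genes past 2-fold were 3.80% lower in follicle cells and 2.08% higher in dermal cells. With every barcode, the log2 ratios were in epidermal cells H19 0.47, Igfbp2 1.17 and Igfbp4 -0.25, in follicle cells Ghr 0.0498, Igfbp2 1.10, Igfbp4 0.12 and Igfbp5 -0.24, in dermal cells H19 0.39, Igf1 0.73, Igfbp2 0.22, Igfbp4 -0.33 and Igfbp5 -0.9951, the count of the 10 genes past 2-fold was 2 higher in epidermal cells, 1 lower in follicle cells and 0 lower in dermal cells, the count of the axis list past 2-fold was 1 lower in epidermal cells and 0 higher in dermal cells, the count of the imprinted list past 2-fold was 4 lower in follicle cells and 2 higher in dermal cells, and the shares of all genes past 2-fold were 3.50% lower in epidermal cells and 2.24% higher in dermal cells. Without integration, the log2 ratios were in epidermal cells H19 0.46 and Igfbp2 1.17, in follicle cells H19 0.44 and Igfbp2 1.14, the count of the 10 genes past 2-fold was 2 higher in epidermal cells, the count of the axis list past 2-fold was 1 lower in epidermal cells, the count of the imprinted list past 2-fold was 1 lower in epidermal cells, and the shares of all genes past 2-fold were 2.03% higher in follicle cells. At resolution 1, the log2 ratios were in epidermal cells H19 0.48 and Igfbp2 1.11, in follicle cells Ghr 0.0504, the count of the 10 genes past 2-fold was 2 higher in epidermal cells, the count of the axis list past 2-fold was 1 lower in epidermal cells, the count of the imprinted list past 2-fold was 1 lower in epidermal cells, and the shares of all genes past 2-fold were 3.70% lower in epidermal cells and 2.12% higher in follicle cells. With each cell classed by its own markers, the log2 ratios were in epidermal cells H19 0.61, Igf1r -0.28, Ghr -0.13, Igfbp4 -0.60 and Igfbp5 -0.61, in follicle cells H19 0.49, Ghr 0.46, Igfbp2 1.17, Igfbp4 0.35 and Igfbp5 0.0653 (reversed), in dermal cells Igf1r -0.32, Igfbp4 -0.31 and Igfbp5 -0.84, the count of the 10 genes past 2-fold was 1 higher in follicle cells, 1 lower in follicle cells and 0 lower in dermal cells, the count of the axis list past 2-fold was 1 lower in epidermal cells, 1 lower in follicle cells and 0 higher in dermal cells, the count of the imprinted list past 2-fold was 5 lower in follicle cells, the genes highest in a class were 0 in follicle cells of the control library, 0 in follicle cells of the Gli2_EKO library and 7 in dermal cells of the Gli2_EKO library, and the shares of all genes past 2-fold were 2.14% higher in follicle cells and 3.87% lower in follicle cells. With the median log2 ratio set to 0, the log2 ratios were in epidermal cells H19 0.64 and Igfbp2 0.96, in follicle cells Igf1r -0.27, Ghr 0.18 and Igfbp4 0.28, the count of the axis list past 2-fold was 1 lower in epidermal cells, and the shares of all genes past 2-fold were 2.27% higher in epidermal cells, 3.51% lower in epidermal cells, 2.80% higher in follicle cells and 3.07% lower in follicle cells. Without the top 1% of cells, the log2 ratios were in epidermal cells Igfbp3 -2.13 and Igfbp5 0.49, in follicle cells H19 0.0948 and Igfbp2 1.66, in dermal cells H19 -0.0143 (reversed), the count of the 10 genes past 2-fold was 1 higher in follicle cells, and the genes highest in a class were 2 in epidermal cells of the control library. In keratinocytes with no collagen UMI, the log2 ratios were in epidermal cells H19 0.81, Igf2 1.70, Ghr 0.51, Igfbp3 -2.41 and Igfbp5 -0.92, in follicle cells H19 0.12, Igf1r -0.26, Ghr 0.17, Igfbp2 1.64 and Igfbp3 0.86, the count of the 10 genes past 2-fold was 1 higher in follicle cells, and the count of the axis list past 2-fold was 2 higher in epidermal cells and 1 lower in epidermal cells. With at least 50 UMIs per gene, the shares of all genes past 2-fold were 0.812% higher in epidermal cells, 2.59% lower in epidermal cells, 1.52% higher in follicle cells, 1.90% lower in follicle cells, 0.676% higher in dermal cells and 1.07% lower in dermal cells. With at least 1 UMI per gene, the shares of all genes past 2-fold were 15.6% higher in epidermal cells, 16.5% lower in epidermal cells, 14.2% higher in follicle cells, 18.9% lower in follicle cells, 13.4% higher in dermal cells and 18.0% lower in dermal cells. Without K2, K7 and K10, the log2 ratios were in follicle cells H19 1.18, Ghr 0.31 and Igfbp3 -0.39, the count of the axis list past 2-fold was 1 higher in follicle cells and 1 lower in follicle cells, and the shares of all genes past 2-fold were 2.69% higher in follicle cells. Without D1, the log2 ratios were in dermal cells H19 -0.22 (reversed), Igf1 0.85, Ghr -0.66, Igfbp2 -0.35 and Igfbp4 -0.27, the count of the axis list past 2-fold was 2 lower in dermal cells, the count of the imprinted list past 2-fold was 3 lower in dermal cells, and the shares of all genes past 2-fold were 2.87% lower in dermal cells.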
